A study of Homo sapiens with 8 samples.

Results

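NSD2, FGFR3 and the D-type cyclins CCND1, CCND2 and CCND3 are the genes by which myelomas with the t(4;14) translocation are recognised and placed among the other classes of the disease. They were chosen by symbol, as 5 of the 18564 genes in the deposited expression table. RNA was sequenced from LP-1, a human myeloma cell line that carries t(4;14), in 4 conditions with 2 libraries each, 8 in all. WT cells were parental LP-1 cells. BR cells were LP-1 cells kept with bortezomib, a proteasome inhibitor, for 2 months, until they resisted it. Each line received either vehicle or 25 nM SI-2, an inhibitor of the coactivator SRC-3, for 24 h. The vehicle was DMSO by the sample titles, while the treatment field calls the WT vehicle cells untreated. BR is 1 resistant derivative of 1 cell line, so a difference between BR and WT describes this pair of cultures. The BR libraries of a treatment are described as biologically independent experiments. Nothing of the kind is given for the WT libraries in the sources used here, and the p-values measure only the spread between these libraries, which may be technical. The design asks whether the 5 genes differ between resistant and parental cells, and whether SI-2 moves them.

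The t(4;14) translocation joins the 4p16.3 region to the immunoglobulin heavy chain locus, and in most such myelomas both NSD2 and FGFR3 then come under immunoglobulin enhancers. NSD2, also called MMSET or WHSC1, places dimethyl marks on lysine 36 of histone H3. FGFR3 is a receptor tyrosine kinase for fibroblast growth factors and signals through the RAS-ERK cascade. The D-type cyclins bind CDK4 and CDK6, and the resulting kinases phosphorylate RB and release E2F factors into the programme of DNA synthesis. Nearly every myeloma expresses at least 1 D-type cyclin, with CCND2 usual in the t(4;14) class, CCND1 in the t(11;14) class and CCND3 in the t(6;14) class.

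Total estimated counts lay between 17997771 and 18570027 per library. All 9 plasma cell markers were detected in every library, with summed levels of 4024 to 5711 FPKM, while SDC1 and SLAMF7 were low, at no more than 12.1 and 0.6 FPKM. The labels call the cells B lymphoblasts, yet the B cell genes MS4A1 and PAX5 stayed at or under 0.03 FPKM in all 8 libraries. The second BR library under SI-2 stood apart. All 5 stromal fibroblast markers (COL1A1, COL1A2, COL3A1, DCN and LUM) were detected there, with 2412 summed counts and 27.2 FPKM, against 5 to 13 counts and 0.07 to 0.16 FPKM in the other 7 libraries. Fitted differences of the 5 genes that use this library are given with and without it.

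The FGFR3 gene yields receptors with different ligand preferences by using 1 of a pair of mutually exclusive exons for the end of the third immunoglobulin-like domain, named IIIb and IIIc. Both are shown because the transcript models that carried most FGFR3 signal differ in this choice. The sequences are from the GENCODE annotation of GRCh38, plus strand, with the alternative exon in capitals and 15 bases of the shared neighbouring exons in lower case. The IIIb exon (in the annotated transcript matched to NM_001163213.1) is exon 8 at chr4:1802914-1803064 and has 151 bases. The IIIc exon (in the other main coding transcript) is exon 8 at chr4:1803692-1803836 and has 145 bases. Both lie in the coding region, and the coding regions of 808 and 806 codons are otherwise built from the same exons.
IIIb: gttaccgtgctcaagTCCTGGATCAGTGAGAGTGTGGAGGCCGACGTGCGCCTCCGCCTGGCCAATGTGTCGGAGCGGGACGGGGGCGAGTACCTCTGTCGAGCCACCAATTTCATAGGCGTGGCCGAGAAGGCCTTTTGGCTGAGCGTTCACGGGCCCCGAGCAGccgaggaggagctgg
IIIc: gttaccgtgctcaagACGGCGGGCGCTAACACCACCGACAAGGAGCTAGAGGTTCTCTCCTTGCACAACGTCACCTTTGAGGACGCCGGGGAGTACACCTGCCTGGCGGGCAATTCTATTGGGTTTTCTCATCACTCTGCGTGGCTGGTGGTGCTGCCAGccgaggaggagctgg

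The 5 genes spanned about 3 orders of magnitude and kept 1 order in 8 of 8 libraries, FGFR3 above CCND2, CCND2 above NSD2, NSD2 above CCND3 and CCND3 above CCND1. Levels between genes are given in FPKM, the authors' value scaled by transcript length and library size. Over the 8 libraries FGFR3 averaged 244.6 ± 63.4 FPKM (SD, n = 8), CCND2 162.3 ± 17.7, NSD2 89.4 ± 15.8, CCND3 10.3 ± 1.36 and CCND1 0.33 ± 0.11. The ranges of FGFR3 (148.5 to 329.2) and CCND2 (125.2 to 179.9) overlapped across libraries, and in the first WT library under SI-2 the 2 genes were nearly level, at a ratio of 1.01. The other neighbours in the order had no overlap. FGFR3 exceeded NSD2 by 1.74 to 3.85 times within a library.

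**Figure D1:**
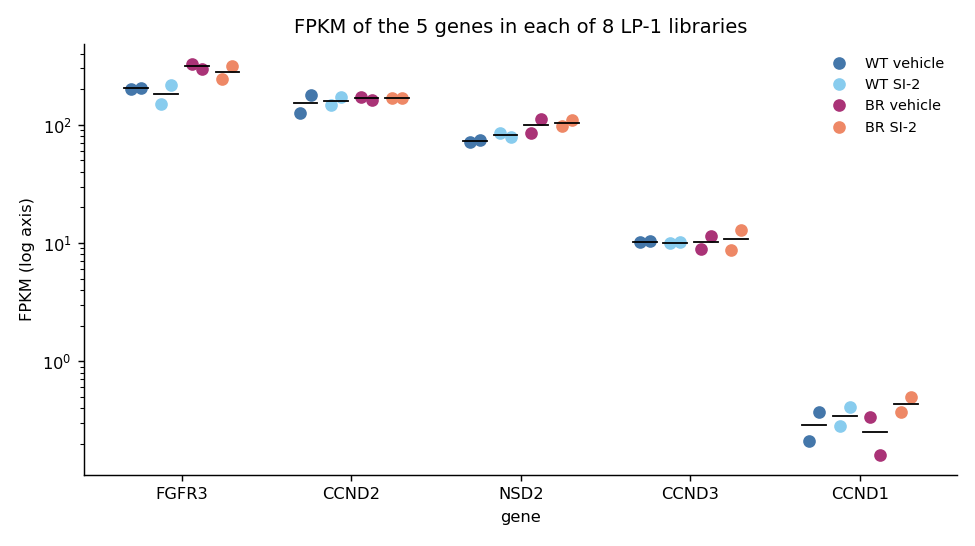
FPKM of the 5 genes (log axis) in each of the 8 LP-1 libraries, coloured by condition. Points are libraries and black lines are the means of 2 libraries. FGFR3, CCND2 and NSD2 lie between 71.0 and 329.2 FPKM, CCND3 near 10.3, and CCND1 at or below 0.5.

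CCND2 was the main D-type cyclin RNA of these cells. It made up 92.4% to 94.9% of the summed D-type cyclin FPKM in every library, CCND3 4.89% to 7.45%, and CCND1 0.092% to 0.27%. CCND2 exceeded CCND3 by 12.4 to 19.4 times. CCND1 was detected with 16 and 29 estimated counts in WT vehicle cells, 22 and 32 in WT cells under SI-2, 27 and 13 in BR vehicle cells, and 30 and 39 in BR cells under SI-2. The exact Poisson 95% intervals of the lowest and the highest of these, 6.92 to 22.2 and 27.7 to 53.3, cover counting error only. The highest count came from the BR library with the stromal markers, and their part in it was not tested.

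FGFR3 measured 199.8 and 205.8 FPKM in WT vehicle libraries and 148.5 and 218.2 in WT libraries under SI-2. In BR libraries it measured 329.2 and 298.9 with vehicle and 243.9 and 312.4 under SI-2. Every BR library lay above every WT library, and the 2 WT libraries under SI-2 differed more from each other than the 2 with vehicle. In CPM, counts scaled to a common library size, BR averaged 1267 ± 161 and WT 845.2 ± 141.5 (SD, n = 4 each), a 1.5-fold difference (log2 fold change 0.58, SE 0.14). With edgeR's quasi-likelihood test on 4 libraries of each line, the p of FGFR3 was 0.00141 before and 0.116 after Benjamini-Hochberg adjustment over 13520 genes, so it missed the threshold of 0.05. In bulk RNA, a change in the number of expressing cells and in RNA per cell cannot be told apart.

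NSD2 measured 71.0 and 74.4 FPKM in WT vehicle libraries, 85.5 and 78.5 in WT libraries under SI-2, 85.6 and 112.6 in BR vehicle libraries, and 97.0 and 110.4 in BR libraries under SI-2. The BR libraries again lay above all WT libraries, by a narrow gap between the lowest BR value (85.56) and the highest WT value (85.51). In CPM the means were 734.1 ± 69.2 in BR and 569.9 ± 41.2 in WT (SD, n = 4 each), a 1.29-fold difference (log2 fold change 0.37, SE 0.096). By edgeR its p was 0.00306 and its adjusted p 0.15, which also missed the threshold.

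For these 2 genes the choice of tool decided the call. DESeq2 called both FGFR3 (log2 fold change 0.59, adjusted p = 0.0083) and NSD2 (0.37, adjusted p = 0.0202), in a list of 399 genes against 49 by edgeR. Without the BR library that held the stromal markers, the edgeR log2 fold changes were 0.58 for FGFR3 and 0.34 for NSD2, with adjusted p of 0.26 and 0.371. Whichever library was left out, FGFR3 stayed between 0.47 and 0.66 and NSD2 between 0.32 and 0.43 on the log2 scale.

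The 3 D-type cyclins showed no comparable difference between the lines. CCND2 measured 125.2 and 179.9 FPKM in WT vehicle libraries, 147.6 and 171.9 in WT libraries under SI-2, 171.8 and 162.0 in BR vehicle libraries, and 169.9 and 169.6 in BR libraries under SI-2. The BR values lay inside the range of the WT values, and the log2 fold change of 0.08 (SE 0.12) had an approximate 95% interval from -0.15 to 0.31. CCND3 measured 10.1 and 10.4, 10.0 and 10.2, 8.85 and 11.4, and 8.79 and 13.0 FPKM in the same order of conditions. Its 4 WT libraries sat close together, at 10.2 ± 0.18 (SD, n = 4), between the lower and the upper BR libraries, at 10.5 ± 2.05, and its log2 fold change was 0.019 (SE 0.12, interval -0.22 to 0.26). CCND1 differed by 0.097 (SE 0.33) with an interval from -0.55 to 0.74. Without the library that held the stromal markers, CCND1 and CCND3 changed sign, to -0.10 and -0.077, and CCND2 was at 0.097.

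Of all 13520 genes tested between the lines, 49 (0.362%) passed an adjusted p of 0.05, and 0 of the 5 genes were among them. At an unadjusted p under 0.05, 14.4% of all genes passed (6.29% higher and 8.08% lower in BR), and among the 5 FGFR3 and NSD2 did, both higher. A complete separation with all BR libraries above all WT libraries was seen in 3.78% of genes tested, and in the same 2 of the 5.

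The difference between the lines was next read within each treatment, from the fit of 4 conditions over 13896 genes. With vehicle, FGFR3 was 1.52-fold (log2 0.61, SE 0.2) and NSD2 1.34-fold (log2 0.42, SE 0.15) higher in BR cells, with edgeR p of 0.0148 and 0.0217 and an adjusted p of 0.967 for both. Of all genes, 0% were called here, and 3.89% had an unadjusted p under 0.05 (1.53% higher and 2.36% lower in BR). Under SI-2 the values were 1.47-fold for FGFR3 (log2 0.56, SE 0.2) and 1.24-fold for NSD2 (log2 0.31, SE 0.15), with edgeR p of 0.0217 and 0.0712 and an adjusted p of 0.998 for both. In that comparison 0.00720% of genes, a single gene outside the 5, was called, and 4.09% had an unadjusted p under 0.05 (1.55% higher and 2.53% lower in BR). Without the library that held the stromal markers, the values under SI-2 were 0.43 for FGFR3 and 0.27 for NSD2, and 0 genes were called. Under SI-2 the lines differed by 0.30 in CCND1, 0.054 in CCND2 and 0.071 in CCND3, and by 0.14, 0.11 and -0.19 without that library. Leaving out 1 library at a time, FGFR3 under SI-2 ran from 0.3 to 0.89 and NSD2 with vehicle from 0.25 to 0.58 on the log2 scale. The vehicle and SI-2 comparisons each gave FGFR3 and NSD2 a positive difference. They use different libraries but the same pair of lines and a shared estimate of the spread, so they are not independent tests.

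**Figure D2:**
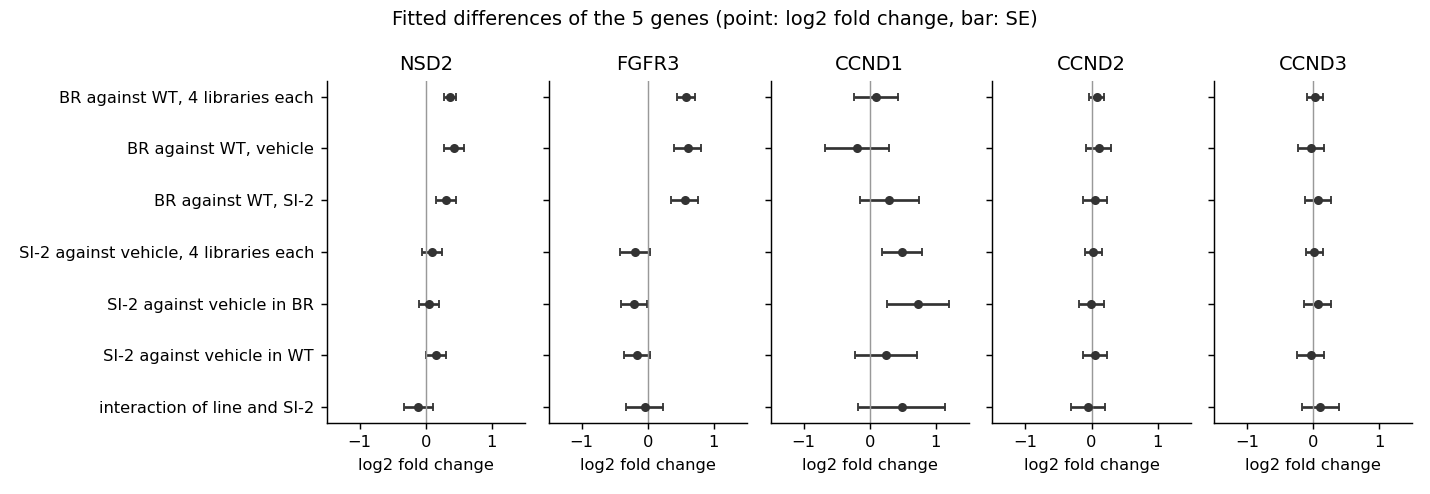
Log2 fold changes of the 5 genes in the 7 comparisons, from edgeR. Points are fitted values, bars are standard errors, and the grey line marks 0. FGFR3 lies between 0.56 and 0.61 and NSD2 between 0.31 and 0.42 in the 3 comparisons of BR with WT, and the SI-2 comparisons lie closer to 0 except for CCND1.

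SI-2 gave no called difference in any of the 5 genes. Over both lines together, NSD2 differed by 0.095 on the log2 scale (SE 0.15), FGFR3 by -0.19 (SE 0.22), CCND2 by 0.024 (SE 0.13), CCND3 by 0.013 (SE 0.13) and CCND1 by 0.5 (SE 0.3). The approximate 95% intervals ran from -0.20 to 0.39 for NSD2, from -0.63 to 0.25 for FGFR3 and from -0.097 to 1.09 for CCND1. Without the library that held the stromal markers, FGFR3 was at -0.34, NSD2 at 0.027, CCND1 at 0.39, CCND2 at 0.032 and CCND3, with its sign turned, at -0.084. Leaving out 1 library at a time moved FGFR3 from -0.34 to -0.028, NSD2 from 0.021 to 0.23 and CCND1 from 0.31 to 0.68. With all 8 libraries, every adjusted p by edgeR was 0.999 or more over both lines. edgeR called 0% of 13520 genes, with 2.22% at an unadjusted p under 0.05, and DESeq2 moved none of the 5 past the threshold.

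Within BR cells SI-2 gave 0.046 for NSD2 (SE 0.15), -0.21 for FGFR3 (SE 0.2), -0.0024 for CCND2 (SE 0.19), 0.065 for CCND3 (SE 0.2) and 0.73 for CCND1 (SE 0.46). Within WT cells it gave 0.16 for NSD2 (SE 0.15), -0.16 for FGFR3 (SE 0.2), 0.05 for CCND2 (SE 0.19), -0.042 for CCND3 (SE 0.2) and 0.25 for CCND1 (SE 0.47). Both comparisons called 0% of genes by edgeR, and 1.20% in BR and 0.533% in WT had an unadjusted p under 0.05, none of the 5 among them. DESeq2 called 1 gene in each. Without the library that held the stromal markers, the values in BR cells were 0.0076 for NSD2, -0.34 for FGFR3 and 0.57 for CCND1, and CCND2 (0.05) and CCND3 (-0.19) changed sign. CCND1 in BR cells ran from 0.27 to 1.4, and FGFR3 from -0.34 to -0.088, as 1 library at a time was left out. The difference between the responses of BR and WT cells, tested as an interaction, had an adjusted p of 1 for each of the 5, with 0% of genes called and 0.533% at an unadjusted p under 0.05. Its value was -0.11 for NSD2 (SE 0.22) and -0.047 for FGFR3 (SE 0.28), and -0.15 and -0.18 without that library. For CCND1, CCND2 and CCND3 the interaction was 0.49, -0.053 and 0.11, and 0.33, 3.2e-05 and -0.15 without that library.

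The deposited transcript table divides each gene's reads over RefSeq models. It listed 14 models for NSD2, 12 for FGFR3, 7 for CCND3 and 1 each for CCND1 (NM_053056.2) and CCND2 (NM_001759.3). CCND3 came almost wholly from NM_001760.4, at 84.6% to 99.2% of its FPKM, the model that codes for the full-length cyclin of 292 codons. CCND1 and CCND2 encode 295 and 289 codons.

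FGFR3 was spread over 3 main models. NM_000142.4, the IIIc receptor, held 34.6% to 42.8% of the FPKM. NM_001163213.1, the IIIb receptor whose exon is printed above, held 19.3% to 26.4%, and NM_001354809.1 held 21.9% to 27.5%. The IIIc model led in 8 of 8 libraries. The shares moved little between the lines: NM_000142.4 averaged 37.4% ± 3.22 in BR and 38.6% ± 2.78 in WT (SD, n = 4 each, exact two-sided permutation p = 0.486), and NM_001163213.1 23.2% ± 2.89 and 23.7% ± 1.82 (exact permutation p = 0.914).

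NSD2 was spread more widely. The predicted model XM_011513557.2, the highest on average and in 6 of 8 libraries, held 26.5% to 47.2%, NM_001042424.2, which codes for the full-length enzyme of 1365 codons, 19.1% to 30.3%, and NM_133334.2, a short form of 647 codons that ends before the catalytic SET domain, 6.73% to 12.9%. NM_007331.1, with 629 codons, stayed just under the mean share of 10% required for a test. The share of XM_011513557.2 was 28.95% and 26.55% in WT vehicle libraries, 39.9% and 32.1% in WT libraries under SI-2, 46.4% and 41.0% in BR vehicle libraries, and 47.2% and 40.4% in BR libraries under SI-2. In both WT vehicle libraries NM_001042424.2 held slightly more, 30.3% and 26.63%. All BR libraries lay above all WT libraries. The means were 43.8% ± 3.55 in BR and 31.9% ± 5.82 in WT (SD, n = 4 each), 11.9 percentage points apart. The exact two-sided permutation p was 0.0286, the smallest that 4 against 4 libraries allow, and the adjusted p 0.343 over the 12 tests. A single model at this smallest p could not pass adjustment over 12 tests, so the adjusted p decides nothing here.

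Split by model, the FPKM of XM_011513557.2 was 20.6, 19.8, 34.1 and 25.2 in the WT libraries and 39.7, 46.1, 45.8 and 44.6 in the BR libraries, with vehicle first. All other NSD2 models together gave 50.5, 54.6, 51.4 and 53.3 in WT and 45.8, 66.5, 51.2 and 65.8 in BR. XM_011513557.2 did not overlap between the lines, at 24.9 ± 6.6 and 44.1 ± 2.97 (SD, n = 4 each), while the rest overlapped, at 52.4 ± 1.88 and 57.3 ± 10.4. This split was made after the shares were seen and was not tested, so its lack of overlap is not independent of theirs. At gene level 3.78% of genes tested had all BR libraries above all WT libraries. The like share over all transcripts was not computed. Shares are estimates, since models of a gene have most of their sequence in common, and estimated counts of NSD2 were whole numbers in 0 of 8 libraries against 7 for FGFR3.

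**Figure D3:**
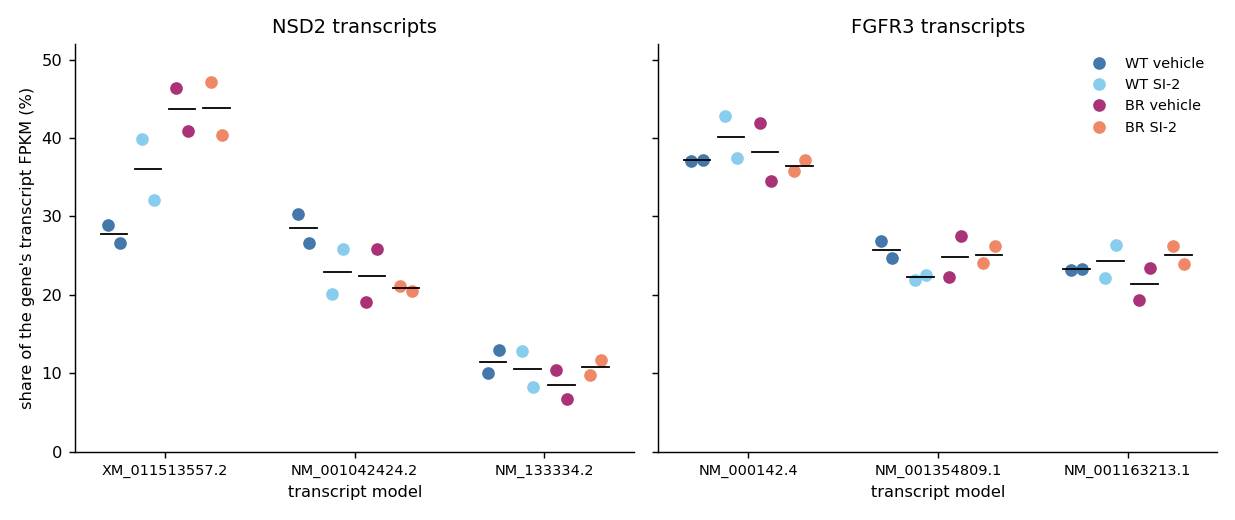
Share of each gene's transcript FPKM (%) held by the NSD2 and FGFR3 models with a mean share of at least 10%. Points are libraries, coloured by condition, and black lines are means of 2. XM_011513557.2 of NSD2 lies between 26.5% and 39.9% in WT and between 40.4% and 47.2% in BR, and the FGFR3 models overlap between the lines.

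FGFR3 and NSD2 lie near each other on the short arm of chromosome 4, with LETM1, a mitochondrial ion exchanger gene, as the only protein-coding gene between them in the RefSeq order. A list of 20 neighbours in 4p16.3 was read, of which 19 were tested between the lines. 12 were higher and 7 lower in BR, with a median log2 fold change of 0.032 against 0.0042 over all genes, and 0 were called. LETM1 measured 44.9 and 57.2 FPKM in WT vehicle libraries, 44.1 and 62.2 in WT libraries under SI-2, 61.7 and 85.2 in BR vehicle libraries, and 55.3 and 87.5 in BR libraries under SI-2. The lines overlapped, and its log2 fold change was 0.43 (SE 0.16) with an adjusted p of 0.266 by edgeR. The genes on the outer sides of the pair, taken by position, were TACC3 beside FGFR3, with 0.18 (SE 0.1), and NELFA beside NSD2, with 0.26 (SE 0.13). Of the others, SPON2 (0.87, SE 0.33) and ZFYVE28 (-0.33, SE 0.13) had an unadjusted p under 0.05. LETM1, SPON2 and ZFYVE28 made 2 higher and 1 lower of the 19, against 6.29% higher and 8.08% lower of all genes. SPON2 was low, at 0.46 to 2.02 FPKM, with its highest value in the library that held the stromal markers. Without that library its log2 fold change was 0.59. CTBP1 (78.4 FPKM) and SLBP (73.9 FPKM) were the highest in level.

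**Figure D4:**
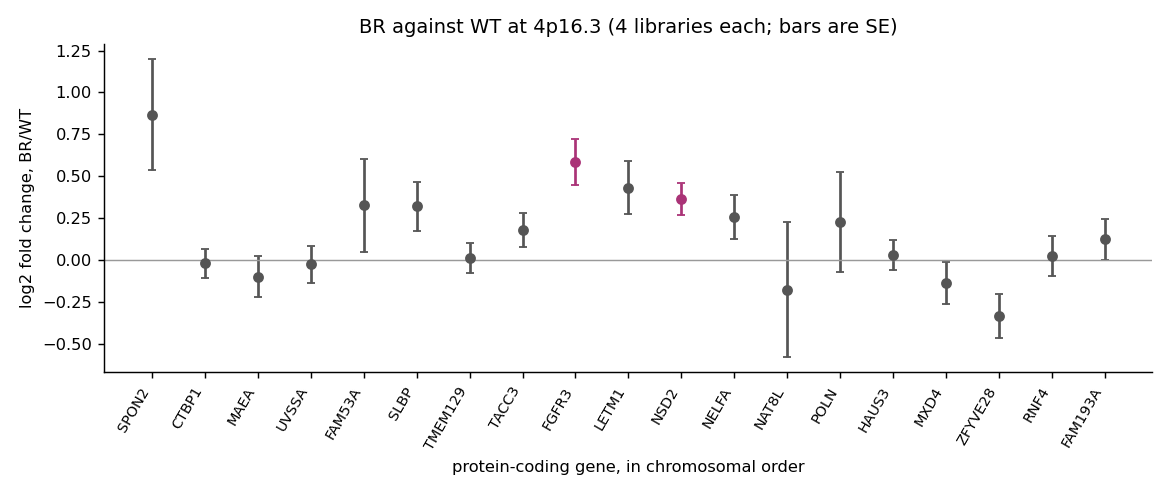
Log2 fold change of BR against WT for FGFR3, NSD2 (coloured) and their protein-coding neighbours in 4p16.3, in chromosomal order at equal spacing. Points are edgeR values over 4 libraries each and bars are SE. FGFR3 (0.58), LETM1 (0.43) and NSD2 (0.37) stand side by side, and the neighbours farther away lie on both sides of 0. SPON2, low in level, is at 0.87, and was at 0.59 without the library that held the stromal markers.

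Beside NSD2, 12 other writers and erasers of histone H3 lysine 36 methylation were measured. Between the lines 10 were higher and 2 lower in BR, 0 were called, and their median was 0.12 against 0.0042 for all genes. NSD3, a relative of NSD2, averaged 19.6 FPKM and differed by 0.24 (SE 0.12), and NSD1, another, averaged 12.8 FPKM and differed by 0.12 (SE 0.16). NSD2 itself stood at several times the level of either relative. KDM2A, a demethylase of the same residue, was the only list gene at an unadjusted p under 0.05 (0.31, SE 0.11). With SI-2 the only one was SETD2, which adds the last methyl group to the residue, at 0.3 (SE 0.13, edgeR adjusted p = 0.999).

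The other FGF receptors were low. FGFRL1 averaged 3.54 FPKM, FGFR2 3.42, FGFR1 1.39 and FGFR4 0.7. FGFR4 differed by 0.47 between the lines (SE 0.2, adjusted p = 0.326 by edgeR), FGFR2 by 0.13 (SE 0.15) and FGFR1 by -0.13 (SE 0.19). The list of FGF ligands was made of 22 genes of the FGF family, and whether each acts on an FGF receptor was not tested. Of these, 20 were in the table and 8 were tested between the lines. FGF13 at 5.42 FPKM and FGF9 at 4.43 were the highest in level. By edgeR 0 were called in any of the 7 comparisons, with 0 at an unadjusted p under 0.05.

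In the list of 25 receptors, adaptors and feedback genes of FGF signalling, 24 were tested between the lines. Of these, 3 were called lower in BR cells and 0 higher, against 0.251% and 0.111% of all genes. The list was chosen with earlier results of these data known, so these shares cannot test whether it stands out. ETV5, an ETS factor induced by ERK signalling, measured 6.12, 6.13, 3.26 and 5.32 FPKM in the WT libraries and 1.07, 0.88, 1.33 and 0.77 in BR, which is -2.39 on the log2 scale (SE 0.25, edgeR adjusted p = 0.00239). ETV4, its close relative, measured 1.64, 2.06, 1.78 and 2.55 in WT and 0.56, 0.91, 0.31 and 0.91 in BR, at -1.71 (SE 0.29, adjusted p = 0.0322). SPRY4, a feedback inhibitor of receptor tyrosine kinase signalling, lay at 0.46 to 0.55 in WT and 0.16 to 0.25 in BR, at -1.30 (SE 0.2, adjusted p = 0.0237). The groups did not overlap in any of these 3, and all BR libraries lay below all WT libraries in 4.36% of genes tested. Without the library that held the stromal markers all 3 stayed past the threshold, with ETV4 at -1.88 and SPRY4 at -1.38. ETV4 lost its call without 6 of the 8 libraries in turn, all but the first WT and the second BR library under SI-2, with adjusted p up to 0.131. SPRY4 lost it without the second WT vehicle, the second WT SI-2 or the second BR vehicle library, with adjusted p up to 0.0937.

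Other feedback genes were not called by edgeR. SPRED2 was at -0.91 (SE 0.24, adjusted p = 0.149 by edgeR and 0.0135 by DESeq2, which called it) and SPRED1 at -0.37 (SE 0.15). SPRY1 was at -0.15 (SE 0.16) and SPRY2 at -0.18 (SE 0.17). DUSP4, with a mean of 15.7 FPKM, had the opposite sign, at 0.28 (SE 0.15), and its libraries overlapped between the lines. DUSP6, with a mean of 0.17 FPKM, was not tested between the lines. The adaptors SHC1 (82.3 FPKM) and GRB2 (41.2 FPKM) were the highest of the list, at -0.13 (SE 0.16) and 0.22 (SE 0.11). The median of the list was -0.047 against 0.0042 for all genes, and 10 of its 24 tested genes were higher and 14 lower in BR. In the same BR libraries in which ETV5, ETV4 and SPRY4 were lower, FGFR3 itself had its higher values.

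Downstream of the D-type cyclins, the list of their kinase partners and the RB pathway had 25 genes, all tested. 19 were higher and 6 lower in BR, with a median of 0.19 against 0.0042 for all genes, and 1 was called, against 0.362% of all genes. This list too was chosen with earlier results known, so such shares cannot test whether it stands out. CDKN1A, the p21 inhibitor of cyclin-dependent kinases, measured 36.05, 37.04, 28.6 and 36.95 FPKM in WT and 14.3, 17.6, 17.5 and 16.9 in BR libraries. It fell by 1.10 on the log2 scale in BR cells (SE 0.12, edgeR adjusted p = 0.00239), with no overlap, and by 1.09 without the library that held the stromal markers (adjusted p = 0.0116). Whichever of the 8 libraries was left out, ETV5 and CDKN1A kept their calls.

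The cyclin D kinases were high and alike in both lines. CDK6 averaged 169.9 FPKM and differed by -0.083 (SE 0.12), and CDK4 averaged 126.4 and differed by -0.11 (SE 0.11). CDKN2C, the p18 inhibitor of these kinases, averaged 236.4 FPKM, with 122.4 to 299.7 in WT and 224.8 to 308.3 in BR libraries, at 0.45 (SE 0.25). At an unadjusted p under 0.05, 6 of the 25 genes had positive values without a call, against 6.29% of all genes higher in BR. They were E2F2 (0.42, SE 0.13), E2F1 (0.3, SE 0.1), E2F8 (0.4, SE 0.14), E2F6 (0.27, SE 0.1), CCNE2 (0.48, SE 0.19) and CDKN2A (0.67, SE 0.27). CDKN1C, the p57 inhibitor, was at -0.72 (SE 0.25). With SI-2, E2F5 alone had an unadjusted p under 0.05, at 0.35 (SE 0.13, edgeR adjusted p = 0.999).

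Among 9 genes of cyclin D turnover, 7 were tested and 0 were called in any comparison. SKP2 (23.4 FPKM) and CUL3 (19.9 FPKM) were the highest, at 0.2 (SE 0.13) and -0.18 (SE 0.12) between the lines. FBXO4, a ubiquitin ligase subunit, was at -0.33 (SE 0.18) between the lines and at -0.63 (SE 0.21) with SI-2 in BR cells, where the edgeR adjusted p was 1.

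The myeloma class list holds genes of the other translocation groups, and 6 of its 7 were tested. ITGB7, an integrin subunit usual in MAF-driven myelomas, was high in every library, with a mean of 652.9 FPKM, above FGFR3 itself, and its log2 fold change was -0.18 (SE 0.24). CX3CR1 was at or under 0.7 FPKM in all libraries, at 1.18 between the lines (SE 0.24, edgeR adjusted p = 0.0759), and was called by DESeq2 (adjusted p = 0.0136) and by limma (adjusted p = 0.0497). 4 of the 6 were higher and 2 lower in BR, and 0 were called by edgeR, with a median of 0.39 against 0.0042 for all genes.

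**Figure D5:**
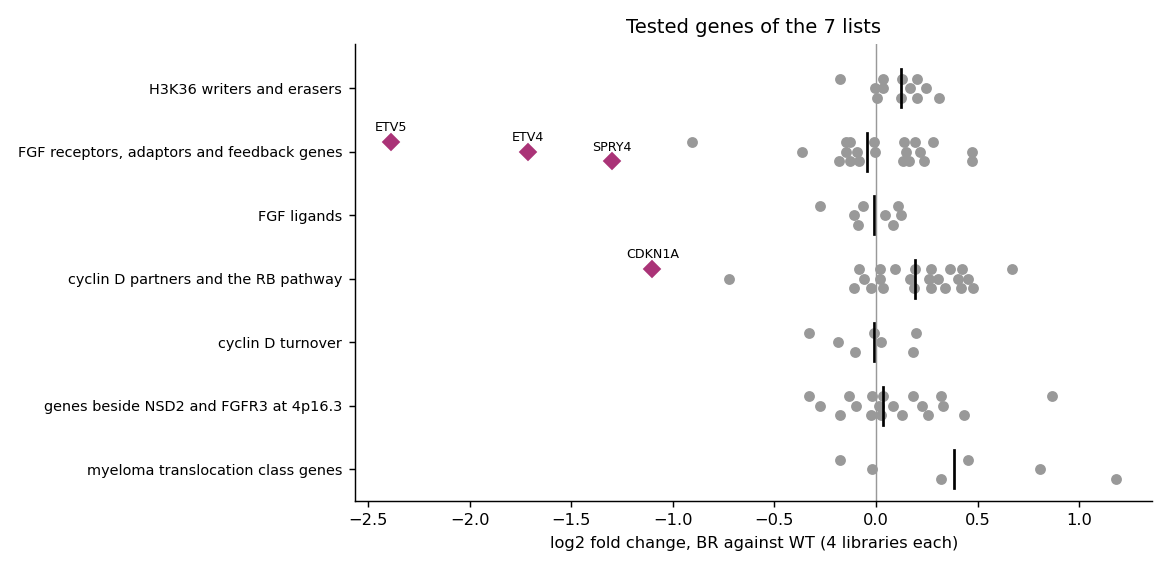
Log2 fold changes of BR against WT for the tested genes of the 7 lists, from edgeR over 4 libraries each. Circles are genes that were not called, diamonds with names are genes with an adjusted p under 0.05, and black bars are list medians. ETV5 (-2.39), ETV4 (-1.71), SPRY4 (-1.30) and CDKN1A (-1.10) are the called genes.

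The genes whose levels followed each of the 5 most closely across the 8 libraries were found by Pearson's r of scaled log2 CPM, over 11273 other genes with a mean count of at least 50 (11274 for CCND1). These are descriptions over 8 libraries that share a cell line. NSD2 was followed by IQGAP2 (r = 0.995), KCTD20 (0.986) and CAMK4 (0.985), and 130 genes exceeded 0.9. FGFR3 was followed by MARS2 (0.98), POGK (0.968) and NBEAL2 (0.967), and 45 genes exceeded 0.9. CCND2 was closest to CALHM2 (0.985), G3BP2 (0.975) and C11orf96 (0.96), CCND3 to ADAMTS15 (0.979), KRT8 (0.962) and ITGA6 (0.961), and CCND1 to FKBP9 (0.911), HLA-DRB3 (0.907) and ACSL5 (0.879). Only 2 genes exceeded 0.9 for CCND1, whose counts were the lowest. Between NSD2 and FGFR3 themselves r was 0.55, and between CCND2 and CCND3 it was -0.24.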

How the data were processed

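RNA of 8 LP-1 libraries was sequenced on BGISEQ-500 and, per the methods, assembled into Unigenes. The submitters' processing notes name hg19, BWA, Bowtie2 and RSEM without versions. The authors deposited estimated counts per gene and transcript, which divide shared reads and need not be whole, and FPKM values, which scale counts by length and library size. A further 8 columns of condition averages per table were not used, nor were the authors' comparison tables, which hold fold changes and q-values.

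Estimated counts were rounded, filtered with filterByExpr, scaled by TMM (factors 0.971 to 1.058) and tested over all genes with edgeR 4.0.16 (quasi-likelihood F-test, Benjamini-Hochberg adjustment) under R 4.3.3. A fit of 4 conditions (13896 genes) gave 5 comparisons, and fits of 4 against 4 libraries (13520 genes) gave 2. All 5 genes passed the filters. Alternatives used DESeq2 1.42.0, limma 3.58.1 on log2(FPKM + 1), other scalings, no filter, and libraries left out in turn. Transcript shares were compared by exact permutation. Scripts were tested on simulated data.

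The members and lists were chosen with earlier results of these data known. Besides the 5 genes, the rule named, for each, the 3 genes of highest correlation, and of each list the genes with an unadjusted p under 0.05, the 2 highest by mean FPKM and the family members. TACC3 and NELFA were added by position, and DUSP4, DUSP6, SPRY1 and SPRY2 as the remaining feedback genes of their list. RefSeq order (GRCh38.p14; 18267 of 18564 identifiers found) and GENCODE sequences (GRCh38) were not mixed with hg19 coordinates. Intervals cover counting or fitting error only. Some genes that the rule names are not reported here.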

Additional observations from a re-analysis of the deposited data

Results flagged for a closer look

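Among 68 groups of 4 libraries (a line or a treatment) examined for 1 library far from the other 3, 5 were flagged by a gap above Dixon's critical share of the group's range at the 95% level. Chance flags about 1 in 20 groups. The summed stromal markers of the second BR library under SI-2, at 27.2 FPKM, stood far above the other BR libraries (0.07 to 0.16) and the other SI-2 libraries (0.07 to 0.11). CCND2 in the first WT library under SI-2, at 147.6 FPKM, lay below the other SI-2 libraries (169.6 to 171.9). The share of the FGFR3 model NM_001163213.1 in the first BR vehicle library, at 19.3%, lay below the other vehicle libraries (23.2% to 23.4%). The share of NM_000142.4 in the first WT library under SI-2, at 42.8%, lay above the other WT libraries (37.1% to 37.4%).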

How the results depend on the processing

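The differences of FGFR3 and NSD2 between the lines stayed positive under every alternative. With all 8 libraries their adjusted p was 0.0739 to 0.132 and 0.0905 to 0.195, apart from DESeq2, which called both (0.59 and 0.37, adjusted p = 0.0083 and 0.0202). With 1 library left out, edgeR gave 0.0807 to 0.309 and 0.0732 to 0.441. Counts of called genes depended on the tool. Between the lines over 4 libraries each, 49 became 399 with DESeq2. With vehicle, 0 became 3 with no filter, 28 with DESeq2 and 1 with limma. Under SI-2, 1 became 31 with DESeq2 and 0 with limma. DESeq2 called 1 gene for SI-2 in BR, 1 in WT and 1 for the interaction. Replicate numbers are shared across conditions. The deviations of replicates 1 and 2 correlated between conditions by -0.121 to 0.436, not over 0.1 in every pair, so the numbers were not taken to pair libraries. With the replicate number as a block, the counts were 155 between the lines and 1 with vehicle, FGFR3 and NSD2 had adjusted p of 0.0739 and 0.0905, and LETM1 (0.43, adjusted p = 0.0302) and CX3CR1 (1.18, adjusted p = 0.0492) gained calls. With line and treatment as terms, ETV4 lost its call (-1.71, adjusted p = 0.0581). CCND2 with SI-2 in BR turned to 0.025 with library size only and with limma. In each case the cause was not tested.

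Leaving out each library in turn, the count between the lines ranged from 21 to 129, under SI-2 from 0 to 6, and for SI-2 in BR from 0 to 7. It was 129 without the first WT SI-2 library and 87 without the first BR vehicle library, and 21 to 38 without each of the other 6. Signs turned in these ranges of log2 fold change. Between the lines, CCND1 ran from -0.10 to 0.33, CCND2 from -0.0078 to 0.16 and CCND3 from -0.077 to 0.088. With vehicle, CCND1 ran from -0.86 to 0.28, CCND2 from -0.12 to 0.38 and CCND3 from -0.18 to 0.097. Under SI-2, CCND2 ran from -0.066 to 0.19 and CCND3 from -0.19 to 0.29. For SI-2 in BR, NSD2 ran from -0.11 to 0.22, CCND2 from -0.087 to 0.082 and CCND3 from -0.19 to 0.28. For SI-2 in WT, FGFR3 ran from -0.49 to 0.10, CCND1 from -0.10 to 0.71 and CCND2 from -0.18 to 0.32. For SI-2 in both lines, CCND2 ran from -0.071 to 0.089 and CCND3 from -0.084 to 0.081. For the interaction, NSD2 ran from -0.27 to 0.060, FGFR3 from -0.31 to 0.27, CCND2 from -0.33 to 0.18 and CCND3 from -0.15 to 0.33. In percentage points, the share of NM_133334.2 with SI-2 ran from -0.46 to 1.61, NM_001163213.1 between the lines from -1.52 to 0.79, and NM_000142.4 from -2.81 to 0.099 between the lines and from -0.93 to 1.99 with SI-2. Where 1 library remained in a condition, it was assumed to vary like the others. With 2 libraries a condition, the differences seen within a treatment did not pass adjustment, and CCND1 rested on 13 to 39 counts.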
